A study of Mus musculus with 24 samples.

Results

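The genes described here are 32 markers of regions and cell types of the mouse brain, among 19015 genes measured in 24 libraries. They were chosen by name as regional markers, with earlier results of these data known, so their spread between libraries is a description of chosen genes. 11 mark the projection neurons of the striatum, 10 mark the epithelium of the choroid plexus, 7 encode neuropeptides or releasing hormones made largely in the hypothalamus, 2 encode hormones of the anterior pituitary and 2 mark Purkinje cells of the cerebellum. The libraries came from 4 tissues (inguinal adipose tissue, IAT; brown adipose tissue, BAT; brain; liver) of female mice aged 12 weeks. The mice were either wildtype (WT) or knockout for Prxl2a (KO), which encodes a peroxiredoxin-like protein, with 3 libraries per genotype and tissue. The design text gives 3 mice per group, and whether the same mice gave all 4 tissues is not stated in the labels. All mice were perfused with PBS before dissection. The targeted allele is not given in the sources used here, nor is the part of the brain that was taken. The question was how far the 6 brain libraries differ in these regional markers, and what that does to the comparison of KO with WT brain.

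The striatum receives dopamine, and most of its neurons are GABAergic projection neurons of a pair of classes. Those of the direct pathway carry the D1 dopamine receptor and the peptide substance P, and those of the indirect pathway carry the D2 receptor, an adenosine receptor and enkephalin. The choroid plexus is a thin epithelial tuft in the ventricles that secretes cerebrospinal fluid and the thyroid hormone carrier transthyretin. Both are anatomically bounded, so their transcripts are abundant in a piece of brain that holds them and scarce in a piece that does not. In bulk tissue, fewer cells of a type and less RNA per cell cannot be told apart.

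RefSeq promoters (GRCm38.p6, 250 bases before to 50 bases after a start) were available for 21 of the 32 genes, with 33 starts in all. Those of Drd2 and Tac1 are shown because they stand for the indirect and the direct striatal pathway, that of Kcne2 because it stands for the choroid plexus, and that of Trh because its values in WT and KO brain did not overlap. Capitals mark TGACG on either strand, the core of the cyclic AMP response element, which reads CGTCA where it lies on the opposite strand. The Drd2 window is chr9:49340153-49340452 on the plus strand, that of Tac1 is chr6:7554811-7555110 on the plus strand, that of Kcne2 is chr16:92292139-92292438 on the plus strand and that of Trh is chr6:92244601-92244900 on the minus strand, each written 5′ to 3′ in the sense of the gene.
Drd2: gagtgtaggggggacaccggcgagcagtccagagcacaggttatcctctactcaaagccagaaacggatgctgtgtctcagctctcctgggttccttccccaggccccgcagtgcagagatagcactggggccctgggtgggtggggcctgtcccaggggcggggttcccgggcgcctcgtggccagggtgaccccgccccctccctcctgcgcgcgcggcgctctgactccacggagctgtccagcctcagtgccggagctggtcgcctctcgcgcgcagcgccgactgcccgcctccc
Tac1: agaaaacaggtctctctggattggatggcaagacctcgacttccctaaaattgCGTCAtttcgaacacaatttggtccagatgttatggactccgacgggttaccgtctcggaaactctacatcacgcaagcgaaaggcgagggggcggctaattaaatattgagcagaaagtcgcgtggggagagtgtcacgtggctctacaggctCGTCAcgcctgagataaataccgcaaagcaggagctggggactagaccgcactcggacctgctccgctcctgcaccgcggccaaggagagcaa
Kcne2: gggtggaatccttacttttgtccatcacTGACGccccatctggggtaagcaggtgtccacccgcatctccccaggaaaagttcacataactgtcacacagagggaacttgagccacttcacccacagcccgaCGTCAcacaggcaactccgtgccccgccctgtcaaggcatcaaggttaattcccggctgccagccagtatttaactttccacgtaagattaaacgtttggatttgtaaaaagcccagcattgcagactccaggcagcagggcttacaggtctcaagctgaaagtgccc
Trh: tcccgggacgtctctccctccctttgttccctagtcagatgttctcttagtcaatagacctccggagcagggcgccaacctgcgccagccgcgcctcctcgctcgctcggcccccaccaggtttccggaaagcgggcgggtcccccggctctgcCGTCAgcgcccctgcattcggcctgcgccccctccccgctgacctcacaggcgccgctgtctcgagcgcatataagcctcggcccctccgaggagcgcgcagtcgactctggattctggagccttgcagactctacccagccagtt
Tac1 held the core at 197 and 43 bases before its start, Kcne2 at 222 and 118 bases and Trh at 96 bases, while the Drd2 window held none. The letters TGACG, searched on both strands, were found in 8 of the 33 promoters of these genes, which belong to 7 genes, and in 20.8% of the 32851 promoters in the table. The full palindrome TGACGTCA, which contains the core, was in 0 of the 33 and in 1.79% of all. The TATA letters TATAAA were in 9 of the 33 and in 13.6% of all, and the Otx2-type letters TAATCC were in 2 of the 33, belonging to Otx2 and Pde1b, and in 7.06% of all. A match is a description of the letters and was not linked to any difference between libraries.

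The libraries were comparable in depth and in general brain content. Brain totals ran from 15788266 to 17293215 expected counts. Prxl2a, which checks the genotype labels, was at 108, 84.1 and 119 CPM (counts scaled to library depth) in WT replicates 1 to 3 and at 5.35, 5.53 and 6.34 CPM in KO replicates 1 to 3. Its log2 fold change of KO against WT was -4.17 (SE 0.16, edgeR adjusted p = 0.000131). The mean log2 CPM of 7 general neuronal genes, among them Snap25 and Syt1, stayed between 9.33 and 9.60 in the 6 libraries, so the label brain held in each. The Purkinje cell gene Pcp2 gave 0 counts in each WT library and 7, 0 and 1 counts in the KO libraries. Between libraries, however, regional markers were far apart, and WT replicates 1 and 2 with KO replicate 2 stood together for the striatal genes, across the genotypes.

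The receptors of the striatal neurons showed this split, and Drd2 and Adora2a had the widest range of the 11 striatal genes. Drd1 (chr13:54051183-54055658), the D1 receptor of direct pathway neurons, was at 57.5, 51.2 and 16.5 CPM in WT and at 8.53, 32.3 and 7.47 CPM in KO. Drd2 (chr9:49340360-49408177), the D2 receptor of indirect pathway neurons, was at 33.6, 33.3 and 2.36 CPM in WT and at 4.54, 22.1 and 0.628 CPM in KO. Adora2a (chr10:75316877-75334792), the adenosine receptor of the same neurons, was at 35.6, 40.9 and 1.03 CPM in WT and at 1.24, 25.7 and 2.26 CPM in KO. For each of the 3 receptors, KO replicate 2 lay near WT replicates 1 and 2, and WT replicate 3 lay near KO replicates 1 and 3, so the genotypes overlapped. The highest library exceeded the lowest 7.70-fold for Drd1, 53.5-fold for Drd2 and 39.8-fold for Adora2a.

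Drd1 had a WT mean of 41.7 CPM (SD 22.1, n = 3) and a KO mean of 16.1 CPM (SD 14.0, n = 3), a log2 fold change of -1.38 (SE 0.64, edgeR adjusted p = 0.75). Drd2 differed by -1.34 (SE 1.11, edgeR adjusted p = 0.825) and Adora2a by -1.41 (SE 1.25, edgeR adjusted p = 0.841). None of the 3 passed the threshold of 0.05. The SE of Drd2 and Adora2a was close to the difference itself. For both genes WT replicate 3 lay more than 10-fold under the other WT libraries. Without KO replicate 2, the log2 fold change moved to -2.38 for Drd1, -3.15 for Drd2 and -3.88 for Adora2a. The ratio of Drd1 to Drd2, in TPM, which accounts for transcript length, was 1.31, 1.17 and 5.37 in WT and 1.44, 1.11 and 8.90 in KO. The 3 libraries rich in striatal transcripts thus held the receptors at ratios between 1.11 and 1.31. The ratio was higher in the other 3, slightly so in KO replicate 1 and several-fold in WT replicate 3 and KO replicate 3. These high ratios stood on few counts of Drd2, 39 in WT replicate 3 and 10 in KO replicate 3.

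The peptide precursors had the same 3 high and 3 low libraries. Penk (chr4:4133536-4138815), which encodes the enkephalins, was at 267, 192 and 36.4 CPM in WT and at 19.5, 130 and 22.9 CPM in KO. Tac1 (chr6:7555061-7562978), the precursor of substance P, was at 79.2, 44.2 and 13.3 CPM in WT and at 12.6, 29.6 and 8.35 CPM in KO. The log2 fold change was -1.53 for Penk (SE 0.87, edgeR adjusted p = 0.776) and -1.43 for Tac1 (SE 0.65, edgeR adjusted p = 0.749), neither of which passed. Their ratio, Tac1 to Penk in TPM, was 0.411, 0.317 and 0.496 in WT and 0.913, 0.317 and 0.508 in KO, so KO replicate 1 held the most Tac1 relative to Penk.

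The signalling genes downstream of the receptors had a narrower range from the lowest to the highest library, at most 6.75-fold, for Rgs9, against at least 7.70-fold for the receptors and peptides. Ppp1r1b (chr11:98348406-98357796), which encodes DARPP-32, the phosphatase inhibitor controlled by dopamine, was at 303, 298 and 73.2 CPM in WT and at 55.3, 285 and 76.8 CPM in KO. Rgs9, a regulator of G protein signalling, was at 147, 121 and 21.8 CPM in WT and at 29.6, 73.6 and 25.7 CPM in KO. Pde10a, a phosphodiesterase of striatal neurons, was at 281, 298 and 84.7 CPM in WT and at 79.5, 224 and 123 CPM in KO. In these 3 genes KO replicate 2 again exceeded WT replicate 3, and for Ppp1r1b it equalled WT replicates 1 and 2 to within 10%. Adcy5, the adenylyl cyclase coupled to the dopamine receptors, was at 326, 287 and 157 CPM in WT and at 111, 214 and 114 CPM in KO. Gng7, the G protein subunit that works with it, was at 314, 235 and 137 CPM in WT and at 113, 169 and 97.7 CPM in KO. Pde1b, a calmodulin-dependent phosphodiesterase, was at 324, 299 and 172 CPM in WT and at 157, 265 and 137 CPM in KO. These last 3 genes are also transcribed in other forebrain neurons, and their highest library exceeded the lowest only 2.93-fold, 3.21-fold and 2.36-fold.

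Gng7 and Adcy5 were the striatal genes nearest to a call. Gng7 differed by -0.85 (SE 0.31, unadjusted p = 0.0264, edgeR adjusted p = 0.749) and Adcy5 by -0.81 (SE 0.33, unadjusted p = 0.0411, edgeR adjusted p = 0.749). For both, WT replicate 3 lay under KO replicate 2. The log2 fold change was -0.69 for Ppp1r1b (SE 0.70), -1.17 for Rgs9 (SE 0.66), -0.64 for Pde10a (SE 0.51) and -0.51 for Pde1b (SE 0.30), with edgeR adjusted p between 0.774 and 0.861. In all 11 striatal genes, WT replicate 1, WT replicate 2 and KO replicate 2 were the 3 highest of the 6 libraries. WT replicate 1 was the highest library in 9 of them.

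**Figure D1:**
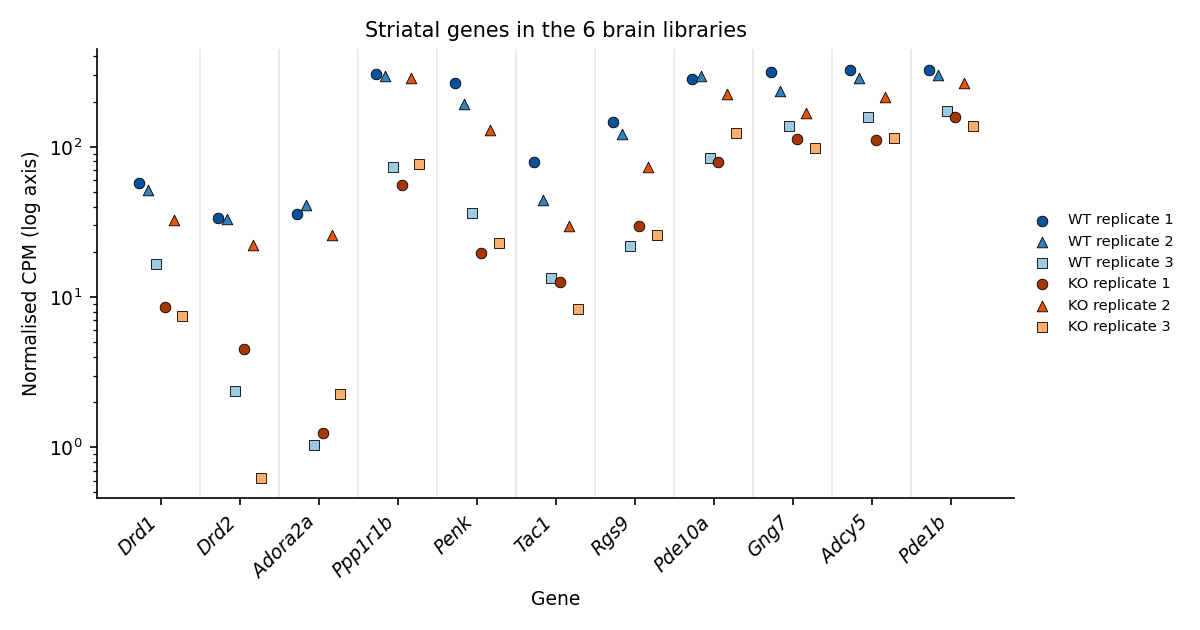
CPM (log axis) of the 11 striatal genes in each of the 6 brain libraries, normalised within brain, 1 symbol per library with no averaging. In every gene WT replicates 1 and 2 and KO replicate 2 lie above the other 3 libraries, and the highest library exceeds the lowest from 2.36-fold for Pde1b to 53.5-fold for Drd2.

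All 11 striatal genes were lower in KO, with a median log2 fold change of -1.17, and 0 passed. Over all 14385 genes tested in brain, the median was 0.00 and 50.4% were lower. The size of the striatal median depended on single libraries: leaving out KO replicate 2 gave -1.80 and leaving out WT replicate 3 gave -1.64, whereas it was -0.73 without WT replicate 1 and -0.79 when KO replicate 3 was left out, while all 11 genes stayed lower in each case. Another 12 striatal genes, which are no members, went the same way with all libraries kept. Of these, 11 were tested and all 11 were lower (median -0.86), with 0 passing. The same 3 libraries were the highest in all 11. These genes were also chosen with earlier results known and mark the same neurons in the same libraries, so they are no independent check. Their median ranged from -1.73 when KO replicate 2 was left out to -0.48 when WT replicate 2 was. In the latter fit 9 of the 11 were lower, and without WT replicate 1 it was 10 of the 11.

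The choroid plexus genes split the libraries in another way. Ttr, which encodes transthyretin, was at 22.1, 57.3 and 473 CPM in WT and at 115, 2.45 and 62.2 CPM in KO. The counts behind the extremes were 7810 in WT replicate 3 and 39 in KO replicate 2, a 193-fold range in CPM. Kl (chr5:150952607-150993817), the membrane protein Klotho, was at 2.85, 2.83 and 24 CPM in WT and at 12.2, 2.07 and 6.47 CPM in KO. Both were highest in WT replicate 3, the WT library poorest in striatal transcripts, and next highest in KO replicate 1. Enpp2 (chr15:54838901-54952789), which encodes autotaxin and is also made by oligodendrocytes, was the exception, at 263, 378 and 392 CPM in WT and at 366, 344 and 301 CPM in KO, a 1.49-fold range.

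Transporters and channels of the epithelium were present at low level. Clic6, a chloride channel-like protein, was at 10.7, 4.18 and 12.9 CPM in WT and at 6.10, 2.89 and 2.32 CPM in KO. Folr1, a folate receptor, was at 0.182, 0.825 and 4.36 CPM in WT and at 1.24, 0.251 and 0.314 CPM in KO. Kcne2, a subunit of potassium channels, was at 0.606, 0.648 and 4.18 CPM in WT and at 0.934, 0.189 and 0.439 CPM in KO. WT replicate 3 was the highest for each of them, and most other values stood on few counts, such as 3 for Folr1 in WT replicate 1 and 3 for Kcne2 in KO replicate 2. Aqp1, a water channel, was at 2.18, 0.589 and 3.63 CPM in WT and at 0.871, 0.189 and 0.942 CPM in KO. Slc4a5, a bicarbonate transporter, was at 0.0606, 0.825 and 3.51 CPM in WT and at 0.934, 0.00 and 0.565 CPM in KO. With 0 counts of Slc4a5 in KO replicate 2, up to 3 counts remain possible at that depth.

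The regulators were also sparse. Sostdc1, a secreted inhibitor of BMP and Wnt signalling, was at 0.788, 0.707 and 2.73 CPM in WT and at 1.93, 0.377 and 0.502 CPM in KO. Otx2, a homeobox factor of the choroid plexus that is also present in thalamic and midbrain cells, was at 1.21, 0.236 and 1.94 CPM in WT and at 7.28, 0.00 and 0.314 CPM in KO. Otx2 was the 1 choroid plexus gene highest in KO replicate 1, with 117 counts, and it was at 0 counts in KO replicate 2.

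**Figure D2:**
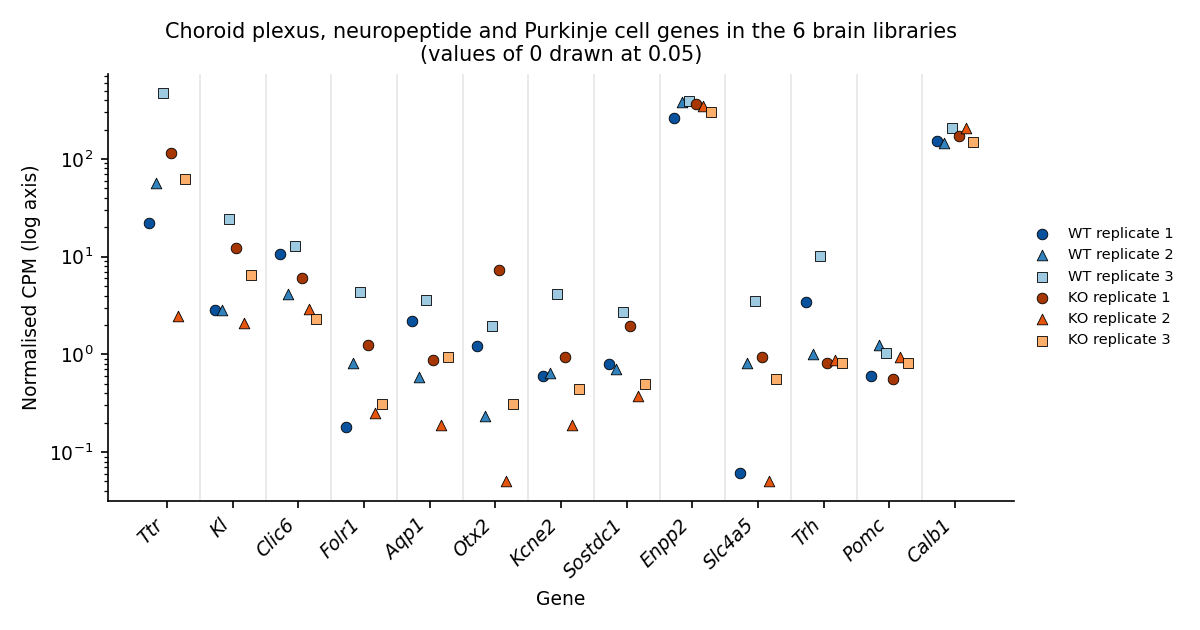
CPM (log axis) of the 10 choroid plexus genes, Trh, Pomc and Calb1 in each of the 6 brain libraries, 1 symbol per library, with values of 0 drawn at 0.05. WT replicate 3 is the highest library for 9 of the 10 choroid plexus genes, led by Ttr at 473 CPM, while Enpp2, Pomc and Calb1 differ little between libraries.

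WT replicate 3 was highest for 9 of the 10 choroid plexus genes and KO replicate 2 lowest for 7. In KO, 9 of the 10 were lower, with a median log2 fold change of -1.41, and 0 passed. Ttr differed by -1.62 (SE 1.3, edgeR adjusted p = 0.818), Kl by -0.52 (SE 0.91, edgeR adjusted p = 0.923) and Clic6 by -1.29 (SE 0.48, unadjusted p = 0.0289, edgeR adjusted p = 0.749). Without WT replicate 3 the median was 0.21, with 3 of the 10 lower and 7 higher, so this direction rested on that library. Ttr then stood at 0.60, Kl at 1.28 and Folr1 at 0.25. Without KO replicate 1 the median was -2.12. Of another 16 choroid plexus genes, 12 were tested, of which 10 were lower (median -0.20) with 0 passing. Their direction rested on the same library, with 4 lower and 8 higher (median 0.21) without WT replicate 3. The median was -0.55, -0.45 and -0.42 when WT replicate 2, WT replicate 1 or KO replicate 3 was left out. Of the 12 genes tested, WT replicate 3 was the highest library for 10, but KO replicate 2 was the lowest for only 5. Trpm3, an abundant gene of this list, was at 63.7, 43.1 and 88.0 CPM in WT and at 115, 61.4 and 74.8 CPM in KO. It was thus highest in KO replicate 1, with a log2 fold change of 0.36 (SE 0.30).

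The ratio of Ttr to Ppp1r1b, in TPM, sets both structures side by side within a library. It was 0.218, 0.595 and 18.6 in WT and 6.94, 0.0245 and 2.41 in KO. Each genotype thus held libraries with more Ppp1r1b than Ttr and libraries with more Ttr than Ppp1r1b.

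Of the 7 neuropeptide genes, only Trh and Pomc had enough counts to be tested. Trh (chr6:92242061-92244650), which encodes thyrotropin-releasing hormone, was at 3.46, 1.0 and 10.2 CPM in WT and at 0.809, 0.880 and 0.816 CPM in KO. These are 57, 17 and 168 counts in WT and 13, 14 and 13 counts in KO. The KO libraries lay close together, WT replicate 2 lay just above them and WT replicate 3 lay highest. Trh differed by -2.53 (SE 0.76, unadjusted p = 0.0110, edgeR adjusted p = 0.723), and by -1.41 without WT replicate 3. It was the 1 of 24 tested members whose WT and KO values did not overlap, where 12.5% of all genes tested did not. Pomc, the precursor of melanocortins, was at 0.606, 1.24 and 1.03 CPM in WT and at 0.560, 0.943 and 0.816 CPM in KO, with a log2 fold change of -0.31 (SE 0.38).

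The other hypothalamic peptides were almost absent. Oxt, for oxytocin, gave 5, 3 and 1 counts in WT and 1 count in each KO library. Avp, for vasopressin, gave 4, 0 and 2 counts in WT and 1 count in each KO library. Pmch, for melanin-concentrating hormone, gave 5, 6 and 4 counts in WT and 2, 1 and 4 counts in KO. Hcrt, for the orexins, and Agrp, an appetite peptide, gave 0 or 1 count in every library. At this depth no difference in these peptides was detectable. Other hypothalamic genes were scarce as well, and of 16 listed only 6 could be tested, with 4 lower, a median of -0.37 and 0 passing. That median turned to 0.04 without WT replicate 1 and to 0.11 when KO replicate 3 was left out, and it was -0.05 without WT replicate 3, -0.16 without KO replicate 2 and -0.28 to -0.35 with either remaining library left out.

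The pituitary genes were also near 0. Gh, for growth hormone, and Prl, for prolactin, gave 0 counts in every library but KO replicate 1, where Gh gave 2 and Prl gave 7. KO replicate 1 was also the library with the 7 counts of Pcp2. Calb1 (chr4:15881264-15906709), a calcium-binding protein of Purkinje cells and also of many forebrain neurons, was at 152, 145 and 206 CPM in WT and at 171, 205 and 150 CPM in KO. Calb1 differed by 0.07 (SE 0.17, edgeR adjusted p = 0.954).

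Ordered by mean TPM over the 6 brain libraries, Ttr was highest at 571, followed by Ppp1r1b at 279, Enpp2 at 266 and Penk at 263. Drd1 was at 20.8, Adora2a at 18.8 and Drd2 at 15.1, and Trh was at 6.21. The place of Ttr rested on WT replicate 3, and the spread between libraries was too wide to order the genes that follow it. Every one of the 8 untested genes had a mean under 1.5 TPM.

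In the comparison of KO with WT brain, 24 of the 32 genes passed the filter on low counts. None of them passed the threshold in edgeR, DESeq2 or limma-voom, where edgeR called 7 of 14385 genes, which is 0.0487%, and DESeq2 called 55 of 14868, which is 0.370%. The smallest edgeR adjusted p among the members was 0.723 and the largest 0.979. In DESeq2, Trh lay just above the threshold, at -2.54 (SE 0.69, DESeq2 adjusted p = 0.0547). At an unadjusted p under 0.05, 4 of the 24 were called, namely Gng7, Adcy5, Clic6 and Trh, all lower in KO, against 3.14% of all genes that were lower at that threshold. By direction, 22 of the 24 were lower, and Otx2 and Calb1 were higher, although Otx2 was lower with limma-voom and on the log2(TPM + 0.1) scale.

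The spread between mice of 1 genotype was wider for many of these genes than for most genes tested. The SD of log2 CPM within genotype was 2.62 for Ttr, 2.61 for Adora2a, 2.33 for Otx2 and 2.31 for Drd2. These ranked 5, 6, 8 and 9 among the 14385 genes from the largest. The median over all genes was 0.17, and the 95th percentile was 0.61. The median was 1.13 for the 11 striatal genes and 1.36 for the 10 choroid plexus genes tested. Of these, 5 striatal and 6 choroid plexus genes were in the 1% of genes with the largest SD. Calb1 and Enpp2, at 0.25 each, lay close to the bulk of genes, and low counts add to the SD of Otx2, Slc4a5, Folr1, Kcne2 and Aqp1.

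**Figure D3:**
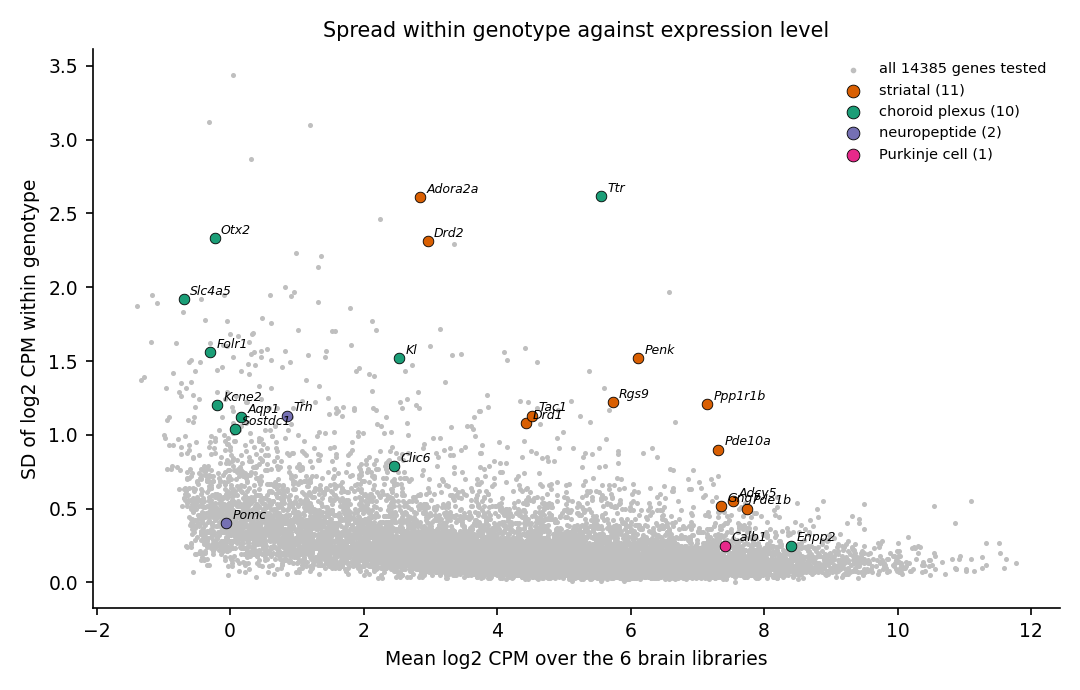
SD of log2 CPM between mice of the same genotype (y axis) against mean log2 CPM over the 6 brain libraries (x axis), 1 point per gene tested, with the members in colour. Ttr, Adora2a, Otx2 and Drd2 lie above 2.3, whereas the median over all 14385 genes is 0.17.

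Marker lists of other regions varied between the same libraries. The values that follow are mean log2 CPM of a list in a library, relative to the mean of that list over the 6 libraries. Olfactory bulb genes (4 tested, with Cdhr1 and Doc2g) stood at 2.37 in WT replicate 1 and between -0.89 and -0.13 elsewhere. Thalamic genes (7 tested, with Tcf7l2 and Slc17a6) stood at 1.79 in KO replicate 1 and between -0.52 and -0.12 elsewhere. Hippocampal genes (7 tested, with Wfs1 and Prox1) stood at 1.25 in WT replicate 3 and 1.29 in KO replicate 1, and were lowest in KO replicate 2, at -1.14. Olfactory bulb and thalamic transcripts were thus each high in 1 library, and hippocampal ones in a library of each genotype. The striatal members stood at 1.39, 1.19 and -0.94 in WT and at -1.09, 0.71 and -1.26 in KO. The choroid plexus members stood at -0.34, -0.25 and 1.86 in WT and at 0.84, -1.71 and -0.39 in KO. WT replicate 3 and KO replicate 1 were thus low in striatal and high in choroid plexus and hippocampal transcripts, and KO replicate 2 was the reverse.

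Some lists of general cell types were steadier. Neuronal genes ranged from -0.11 to 0.16, endothelial genes from -0.17 to 0.16 and microglial genes from -0.26 to 0.17. Oligodendrocyte genes were lowest in WT replicate 3, at -0.84, and highest in WT replicate 2, at 0.51. Ependymal genes ranged from -0.88 to 0.62, meningeal genes from -0.89 to 0.69 and red blood cell genes from -0.56 to 0.54, so these varied more than the cortical list. Cerebral cortex genes were lowest in WT replicate 1, at -0.50, and highest in KO replicate 2, at 0.34. In KO against WT, the 7 thalamic genes were all higher (median 1.05), but 5 of 7 were higher (median 0.32) without KO replicate 1. Cortical genes were higher in 8 of 9 (median 0.35) and olfactory bulb genes lower in 4 of 4 (median -1.69). The olfactory bulb median was -0.10, with 3 of 4 lower, when WT replicate 1 was left out. Red blood cell genes were lower in 4 of 4 (median -0.59), and all stayed lower with any library left out (median -0.82 to -0.45). Ependymal genes were lower in 6 of 6 (median -0.49), and in 6 of 7 (median -0.08) without KO replicate 2. Astrocyte genes were higher in 6 of 7 (median 0.10), and in 3 of 7 (median -0.02) without KO replicate 1. Cerebellar genes (6 of 9 tested, with Zic1 and Car8) stood at 1.08 in KO replicate 1 and between -0.50 and 0.01 elsewhere. They were higher in KO in 6 of 6 (median 0.22), and in 2 of 6 (median -0.15) without KO replicate 1 and (median -0.07) without WT replicate 2. Zic1, a factor of cerebellar granule cells that is also present in forebrain, was at 68.3, 12.5 and 13.3 CPM in WT and at 92.8, 12.4 and 15.1 CPM in KO. No gene of any of these lists passed. The part of these regional transcripts in the differences of the members was not tested.

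**Figure D4:**
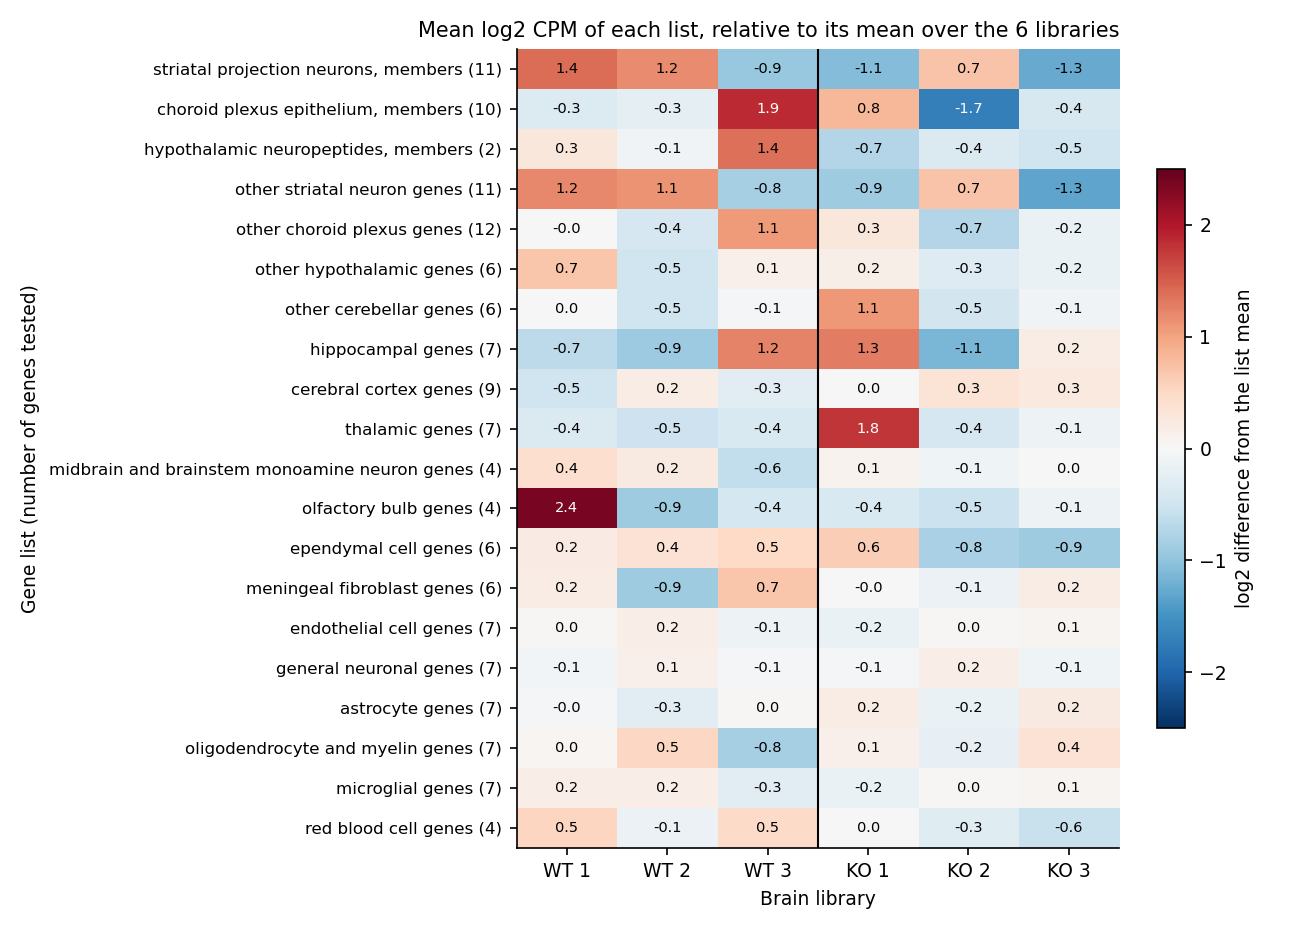
Mean log2 CPM of each marker list in each brain library as the difference from the list's mean over the 6 libraries, with the number of genes tested in brackets. Striatal genes are high in WT replicates 1 and 2 and KO replicate 2, choroid plexus and hippocampal genes in WT replicate 3 and KO replicate 1, thalamic genes in KO replicate 1 and olfactory bulb genes in WT replicate 1, while neuronal, endothelial and microglial genes vary least.

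The levels of the members were then used as covariates for all genes. With the mean of the striatal members in the model, edgeR called 9 genes instead of 7, of which 4 were among the 7. With the mean of the choroid plexus members it called 21 genes, including all 7. With both, 0 genes were called, 1017 had an unadjusted p under 0.05, and 2 residual degrees of freedom were left. Prxl2a kept a log2 fold change of -4.28 and -4.10 with 1 covariate (edgeR adjusted p = 6.39e-05 and 0.000138) and stood at -4.54 with both (SE 0.43, edgeR adjusted p = 0.286). The members were part of the covariates and are not described from these fits.

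**Figure D5:**
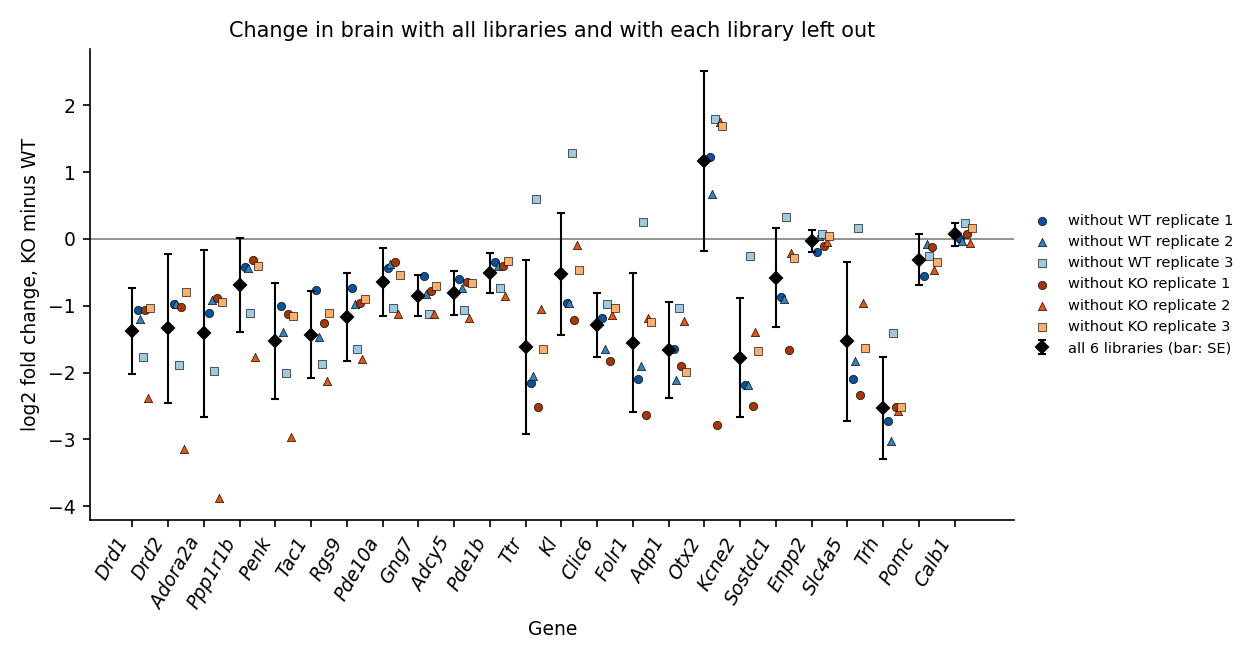
Log2 fold change of KO against WT brain (y axis) for each tested member with all 6 libraries (diamond, bar 1 SE) and with each library left out (coloured symbols). Leaving out KO replicate 2 moves the striatal genes down, as far as -3.88 for Adora2a, and leaving out WT replicate 3 moves choroid plexus genes up, to 1.28 for Kl.

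Outside the brain, fewer of these genes were measurable. Ttr, which hepatocytes also secrete, was at 15344 TPM in WT and 16528 TPM in KO liver, with a log2 fold change of 0.21 (SE 0.15, edgeR adjusted p = 0.527), and was listed at 0 in IAT and BAT. Aqp1, which capillaries carry, was at 334 TPM in WT and 323 TPM in KO BAT, above its mean of 1.33 TPM in brain. Enpp2, which adipocytes secrete, was at 86.3 TPM in WT and 73.7 TPM in KO BAT. None of the 8 members tested in BAT and none of the 7 tested in liver passed, where edgeR called 0.540% and 1.11% of all genes. The smallest edgeR adjusted p was 0.305 in BAT and 0.393 in liver.

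In IAT, 12 members were tested and 0 passed in edgeR, which called 0% of 14097 genes, although 2226 of them had an unadjusted p under 0.05. Penk was at 41.3, 44.4 and 54.0 CPM in WT and at 24.1, 24.9 and 23.0 CPM in KO, without overlap. Clic6 was at 9.89, 8.38 and 5.86 CPM in WT and at 2.83, 2.33 and 2.95 CPM in KO, also without overlap. For these genes every KO library lay under every WT library, by -0.95 for Penk (SE 0.15, edgeR adjusted p = 0.165) and by -1.57 for Clic6 (SE 0.27, edgeR adjusted p = 0.175). DESeq2 called both, Penk at -0.97 (SE 0.19, DESeq2 adjusted p = 3.66e-05) and Clic6 at -1.59 (SE 0.33, DESeq2 adjusted p = 0.000204), where it called 7.38% of all genes. In all, 4 of the 12 members did not overlap between WT and KO in IAT, which was so for 18.5% of all genes tested there. The others were Pde10a, at -0.72 (SE 0.26), and Enpp2, at 0.45 (SE 0.22), and neither passed in either tool.

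The IAT libraries differed in lymphocyte transcripts. A list of 10 lymphocyte genes, chosen after results were known and all present in the table, summed to 10.2, 15.2 and 8.68 CPM in WT and to 1858, 5.01 and 948 CPM in KO, with 1 gene at 0 in WT replicate 3 and 1 in KO replicate 2. Adora2a, which lymphocytes also carry, was at 6.95, 5.72 and 4.19 CPM in WT IAT and at 23.6, 2.84 and 13.1 CPM in KO IAT. Pde1b was at 10.6, 12.9 and 13.8 CPM in WT and at 35.9, 9.84 and 22.8 CPM in KO. Both were high in the KO replicates 1 and 3 that were rich in lymphocyte genes, and the part of those cells was not tested. Without KO replicate 2, edgeR called 12.1% of all genes and 5 members: Adora2a at 1.70, Rgs9 at 2.76 and Pde1b at 1.23 were higher, and Penk at -0.99 and Clic6 at -1.48 were lower. Rgs9 did not pass the filter on low counts when all IAT libraries were kept. It gave 6, 8 and 3 counts in WT and 56, 6 and 28 counts in KO, so it entered only through the KO libraries where it was high. In KO replicate 2, Penk was at 24.9 CPM and Clic6 at 2.33 CPM, near the other KO libraries. The part of lymphocytes in the differences of Penk and Clic6 was not tested.

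Whether the KO effect of a gene differed between the 4 tissues was tested in 1 fit of all 24 libraries. Of the 24 members tested, 0 passed, with a smallest edgeR adjusted p of 0.159, where 68 of 16169 genes did. An effect of these genes that differs between tissues was therefore not called, including for Penk and Clic6. In brain the SE was 0.87 for Penk and 0.48 for Clic6, against 0.15 and 0.27 in IAT. Because the fit shared a dispersion per gene over the tissues, the missing call does not show equal effects on Penk and Clic6. Their log2 fold changes were negative in both brain and IAT, but WT and KO overlapped in brain. For members with 0 or few counts outside the brain, such as Otx2 with 0 counts in IAT, BAT and liver, the test could not decide.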

How the data were processed

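RNA was sequenced from 4 tissues of WT and Prxl2a KO mice, with 3 libraries per group, and grouped by the labels' titles. The authors deposited 1 table of 19015 genes. It holds deposited expected counts, which are raw estimates of the reads of a gene, and TPM computed by the authors for each library, per the file headers. The submitters' processing notes name RSEM 1.3.1, Bowtie2 2.3.4.3, DESeq2 1.4.5 and the build GRCm38.p6. No annotation is given in the sources used here. A further 48 per-sample columns were not used. Gene identifiers matched RefSeq for 18958 genes and did not for 57.

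Expected counts were rounded (91.4% were already whole). For every tissue a separate fit of 6 libraries was made in edgeR 4.0.16 under R 4.3.3 (TMM, filterByExpr, quasi-likelihood F-test, Benjamini-Hochberg adjustment over all genes tested, called under 0.05). Standard errors were taken from the F statistic, CPM was normalised by TMM within a tissue, and log2 CPM used a prior count of 2. The fits were tested on simulated data. The simulated counts were drawn independently for each gene, without regional differences between libraries, so they do not cover the spread described here. Library totals ran from 12327459 to 18257788 expected counts, and low counts are limited by counting error.

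All 32 members were described. Of each other list, counts, medians and up to 3 abundant genes were given. The members and the lists were chosen with earlier results of these data known. Of the genes listed, 3 were not in the table, and the values of 1 are not reported here. Alternatives were DESeq2 1.42.0, limma-voom from limma 3.58.1, limma-trend for log2 of TPM with 1 or 0.1 added, RLE factors, no filter or 1 CPM in at least 3 libraries, a single fit of 24 libraries, a replicate block, list means as covariates, and leaving out each library.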

Additional observations from a re-analysis of the deposited data

How the results depend on the processing

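No member passed the threshold in brain under any alternative without covariates, and members were not called from the covariate fits. The striatal median stayed negative throughout, from -1.80 to -0.73 with a library left out. The number of brain genes called was 7 in the edgeR fit, 55 with DESeq2, 2 with limma-voom, 4 with the replicate block, 21 with the choroid plexus mean as covariate and 0 with both means as covariates. It ranged from 1 to 9 with a library left out, at 4 without WT replicate 1 or WT replicate 3 and at 1 without KO replicate 1 or KO replicate 3, with fewer samples in each. The choroid plexus median ranged from -2.12 to 0.21 and the hypothalamic median from -1.64 to -0.83 with a library left out, both highest without WT replicate 3. The hypothalamic median was -0.54 on the log2(TPM + 1) scale, where 3 genes entered. A filter of 1 CPM in 3 libraries left 5 choroid plexus genes, with a median of -0.52, and no hypothalamic gene. In IAT, DESeq2 called 2 members, where it called 7.38% of all genes. Leaving out a library gave 0 to 5, with 5 without KO replicate 2, where edgeR called 12.1% of all genes. The KO libraries that remained in that fit were those rich in lymphocyte genes. The 5 members included Rgs9, which the filter removed when all libraries were kept.

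Otx2 changed sign to -0.99 with limma-voom and to -0.46 on the log2(TPM + 0.1) scale, and the cause was not tested. With a library left out, log2 fold changes spanned 0 for 8 members: Ttr from -2.51 to 0.60, Kl from -1.21 to 1.28, Folr1 from -2.63 to 0.25, Otx2 from -2.78 to 1.80, Sostdc1 from -1.66 to 0.33, Slc4a5 from -2.34 to 0.17, Enpp2 from -0.19 to 0.07 and Calb1 from -0.06 to 0.24. Otx2 turned without KO replicate 1. Ttr, Kl, Folr1, Sostdc1 and Slc4a5 turned without WT replicate 3.

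WT and KO mice share replicate numbers, but nothing in the labels says that a number marks a shared litter or day. The correlation of deviations from the group means between same-numbered brain libraries was 0.04, 0.39 and 0.10. Between differently numbered ones it ran from -0.36 to 0.26. The numbers were not taken as pairs because the labels give no pairing, and these few values cannot decide it. Under the replicate block the striatal median was -0.95, the choroid plexus median -1.20 and the hypothalamic median -1.22.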

Other observations

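Among genes that are no members, those with the widest spread within genotype at a mean of at least 5 CPM showed further patterns between the brain libraries. Lhx9, a homeobox factor of thalamic neurons, was at 0.424, 0.00 and 7.51 CPM in WT and at 22.7, 0.00 and 0.753 CPM in KO. C1ql2, a gene of dentate gyrus granule cells, was at 0.728, 1.0 and 15.3 CPM in WT and at 18.5, 0.00 and 4.08 CPM in KO. Both were highest in KO replicate 1, followed by WT replicate 3, and stood at 0 in KO replicate 2, where 7 of the 10 choroid plexus members were also lowest. Other genes chosen by this rule differed in further ways. Ndst4 was highest in WT replicate 1, at 101 CPM, whereas Gm14296 stood at 0 in that library and at 7.54 CPM or more elsewhere.

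Scn4b, a sodium channel subunit of striatal neurons, was at 199, 329 and 14.5 CPM in WT and at 61.6, 276 and 45.1 CPM in KO. Cd4 was at 8.85, 13.0 and 0.485 CPM in WT and at 0.560, 7.54 and 0.628 CPM in KO, with the same 3 highest libraries as the striatal members. Dlk1 was at 13.3, 0.412 and 17.1 CPM in WT and at 2.93, 0.503 and 0.879 CPM in KO, and Gpr101 was at 4.55, 0.825 and 20.3 CPM in WT and at 4.54, 0.692 and 0.565 CPM in KO. Both were highest in WT replicate 3, as Trh was. None of the 15 genes chosen by this rule passed the edgeR threshold in the comparison of KO with WT.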
